A study of Rattus norvegicus with 48 samples.

Results

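The 10 genes described here are the corticosteroid receptors of the rat brain and a set of genes of glucocorticoid action: Nr3c1, Nr3c2, Fkbp5, Fkbp4, Hsd11b1, Tsc22d3, Sgk1, Mt2A, Errfi1 and Pdk4. Their probe sets were taken by gene symbol from the platform annotation, which names 14324 genes. This gave 11 of the 27342 probe sets, 1 for each gene except Mt2A with 2. RNA of 4 brain areas was hybridised to whole-transcript arrays, from punches of 2 mm in male Sprague-Dawley rats aged 120 days. The areas were the basolateral amygdala (BLA), motor cortex (CRTX) and the hippocampal fields CA1 and CA3. All rats were of generation F3 and none was itself given the compound. The vinclozolin lineage (Vin) goes back to pregnant F0 females injected with 100 mg/kg/day of vinclozolin, a fungicide that blocks the androgen receptor, during embryonic days 8 to 14. The control lineage (Con) goes back to females given the vehicle DMSO. Rats of the stressed groups (St) had daily restraint of 6 hours on 21 days as adolescents, and those of the non-stressed groups (NSt) were not. Every rat was housed with a partner of the other lineage.

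Crossing lineage and stress gave NSt-Con and NSt-Vin without stress and St-Con and St-Vin with stress, with 3 arrays of each in every area, and each array took RNA pooled from 4 animals. The same 12 pools supplied all 4 areas. Of the 48 arrays, 46 were used. NSt-Vin array 2 of motor cortex and St-Con array 3 of CA1 hold the mean of their group's other arrays at each probe set, so these groups have n = 2. In fits within an area, and of each pool's mean over areas, p-values measure the spread between pools. Where arrays of several areas enter the same fit, a pool supplies several arrays and is treated as a block. Those p-values measure the spread between arrays, within pools as well as between them.

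Glucocorticoids reach 2 nuclear receptors in the brain, the glucocorticoid receptor (Nr3c1), found in most cells, and the mineralocorticoid receptor (Nr3c2), which binds corticosterone with higher affinity and is known for its high level in the hippocampus. Without ligand the receptors sit in a complex with heat shock proteins and the immunophilins Fkbp5, which lowers ligand affinity, and Fkbp4, which favours transport to the nucleus. Hsd11b1 regenerates active corticosterone inside cells. Tsc22d3 (GILZ), Sgk1, Mt2A, Errfi1, Pdk4 and Fkbp5 itself are known to be transcribed in response to the activated receptor.

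Array medians lay within 0.06 of each other in every area but differed between areas, from 6.76 in motor cortex to 7.39 in CA3 on the log2 scale. BLA and part of motor cortex shared scan day 1, and CA1 and CA3 had days of their own. RNA was prepared on 2 days, the first for BLA and motor cortex and the second for CA1 and CA3. Choroid plexus markers stood more than 0.6 above the area's mean on 5 arrays, namely BLA St-Vin 3, CRTX NSt-Con 1, CA1 NSt-Con 2 and 3, and CA3 NSt-Con 3. The area labels were compared with neuron markers after quantile normalization. The list of CA3 and CA2 pyramidal cell genes averaged 8.61 in CA3, 8.48 in CA1, 8.11 in BLA and 7.75 in motor cortex. The list of CA1 pyramidal cell genes was not highest in CA1, with 8.37 in CA3 and 8.17 in CA1, and dentate granule cell genes averaged 8.30 in CA3 and 7.62 in CA1. Cortical layer genes averaged 7.94 in motor cortex and 7.92 in CA1. Striatal medium spiny neuron genes averaged 8.23 in BLA and 6.76 to 6.96 in the other areas, and on single BLA arrays they ran from 7.19 to 9.08 as deposited. In whole tissue, fewer cells of a type and less RNA per cell cannot be told apart.

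The area that a punch came from was compared first, with the animal pool as a block. Nr3c2 had the widest range of the 11 probe sets across areas: after quantile normalization it averaged 7.51 ± 0.08 (SD, n = 11) in motor cortex, 8.31 ± 0.27 (n = 12) in BLA, 9.21 ± 0.38 (n = 11) in CA1 and 9.54 ± 0.14 (n = 12) in CA3. The motor cortex arrays lay between 7.36 and 7.61 and overlapped with no other area. BLA reached 8.73 and CA1 began at 8.60, so these overlapped, as did CA1 and CA3. The difference of CA3 from motor cortex was 2.64 ± 0.096 (SE) as deposited and 2.02 ± 0.097 after quantile normalization, with adjusted p = 1.2e-27 and 2.57e-22, and it was positive in 11 of 11 pools. CA3 also exceeded CA1, by 0.33 ± 0.097 after quantile normalization (adjusted p = 0.0032), in 9 of 11 pools.

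**Figure D1:**
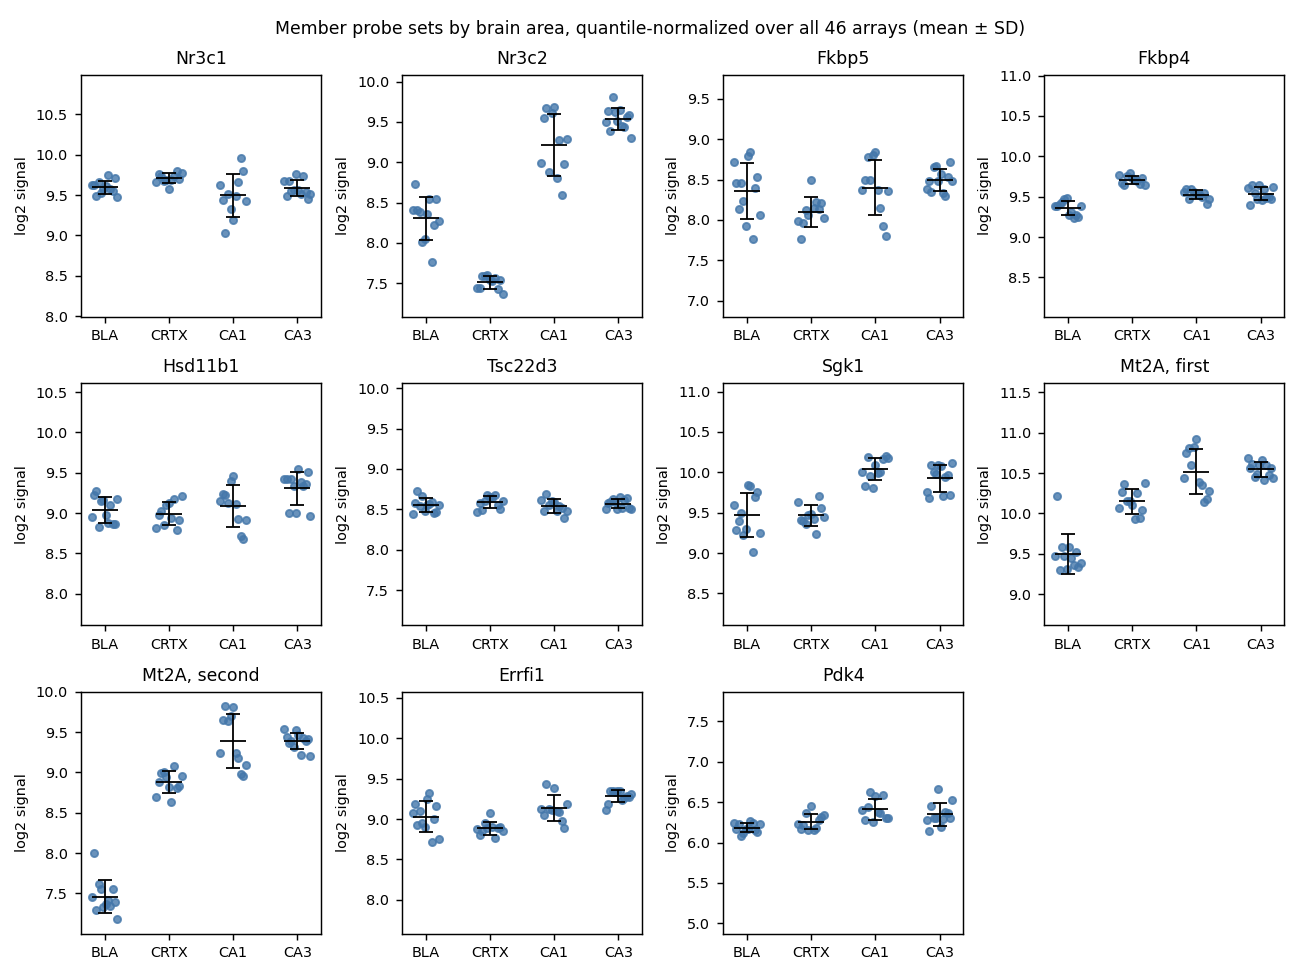
Log2 signal of the 11 member probe sets (vertical axis) in BLA, CRTX, CA1 and CA3 (horizontal axis), quantile-normalized over all 46 arrays. Points are arrays and bars the mean ± SD of 11 or 12 arrays; all panels span 3 log2 units. Nr3c2 climbs from 7.51 in motor cortex to 9.54 in CA3 and the second Mt2A probe set from 7.46 in BLA to 9.39 in CA1 and CA3. Nr3c1 and Tsc22d3 stay close to level on this scale.

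Nr3c1 was close to level across areas. Its means were 9.71 ± 0.06 for motor cortex, 9.60 ± 0.08 for BLA, 9.59 ± 0.10 for CA3 and 9.50 ± 0.26 for CA1 after quantile normalization, and only the difference of CA1 from motor cortex passed the threshold there, at -0.21 ± 0.062 (adjusted p = 0.00345). The CA1 arrays were the widest spread, from 9.03 to 9.95. As deposited, CA3 minus motor cortex was 0.38 ± 0.071 for Nr3c1, whereas after quantile normalization it was -0.12 ± 0.060 (adjusted p = 0.0739), so this direction turned with the scaling. Tsc22d3, a leucine zipper protein that mediates anti-inflammatory glucocorticoid effects, lay between 8.54 and 8.59 on average in the 4 areas after quantile normalization. It passed in none of the 6 pairs on that scale. As deposited Tsc22d3 passed in all 6, from -0.11 ± 0.033 for CRTX minus BLA to 0.55 ± 0.033 for CA3 minus CRTX. Its level course thus also depended on the scaling.

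Mt2A, a metallothionein that binds zinc and copper and is abundant in astrocytes, was lowest in BLA. After quantile normalization its second probe set averaged 7.46 ± 0.21 in BLA, 8.88 ± 0.14 in motor cortex, 9.39 ± 0.33 for CA1 and 9.39 ± 0.10 for CA3, and the first 9.50 ± 0.25, 10.15 ± 0.15, 10.52 ± 0.28 and 10.55 ± 0.09. Both probe sets were lower in BLA than in each other area in every pool. CA1 and CA3 did not differ beyond their spread on this scale, with differences of 0.03 ± 0.075 and 0.00 ± 0.075 for the first and second probe set. The deposited values had CA3 above CA1 by 0.24 ± 0.073 and 0.25 ± 0.072, past the threshold.

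Sgk1, a kinase that acts on ion channels and is a classical corticosteroid target, was higher in the hippocampal fields. After quantile normalization it averaged 9.47 in both BLA and motor cortex (SD 0.27 and 0.13), 10.04 ± 0.14 in CA1 and 9.93 ± 0.17 in CA3, and CA1 exceeded motor cortex by 0.57 ± 0.076 (adjusted p = 1.28e-08) in 10 of 10 pools. BLA and motor cortex, and CA1 and CA3, did not differ beyond their spread.

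Among the chaperones, Fkbp5 and Fkbp4 ran differently. After quantile normalization Fkbp5 was lowest in motor cortex, at 8.10 ± 0.18, and averaged 8.36 ± 0.34 in BLA, 8.40 ± 0.34 in CA1 and 8.50 ± 0.14 in CA3. The last 3 did not differ beyond their spread on this scale. The deposited values had Fkbp5 in CA3 above BLA by 0.54 ± 0.105 and above CA1 by 0.37 ± 0.107, past the threshold. Fkbp4 after quantile normalization was highest in motor cortex, at 9.71 ± 0.05, equal within the spread in CA1 (9.53 ± 0.06) and CA3 (9.54 ± 0.08), and lowest in BLA (9.36 ± 0.09). As deposited, CA3 exceeded CA1 by 0.26 ± 0.031 and motor cortex by 0.33 for Fkbp4. After quantile normalization its difference of CA3 from motor cortex was -0.18 ± 0.028.

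Hsd11b1 was highest in CA3. It averaged 9.04 ± 0.16 in BLA, 8.99 ± 0.15 in motor cortex, 9.09 ± 0.26 for CA1 and 9.31 ± 0.20 for CA3, and only the 3 differences that involve CA3 passed the threshold after quantile normalization. Errfi1, a feedback inhibitor of the EGF receptor, averaged 9.03 ± 0.19, 8.89 ± 0.08, 9.14 ± 0.16 and 9.28 ± 0.07 in the same order of areas after quantile normalization. CA1 and BLA did not differ beyond their spread on this scale, while the deposited values had CA1 above BLA by 0.30 ± 0.059, past the threshold. Pdk4, which restrains pyruvate oxidation, averaged 6.18 ± 0.06, 6.26 ± 0.10, 6.41 ± 0.13 and 6.35 ± 0.14 after quantile normalization. On that scale its hippocampal levels exceeded BLA by 0.23 ± 0.047 in CA1 and 0.17 ± 0.046 in CA3. This probe set was dim, with median ranks at 28.3% to 33.4% of all probe sets in the 4 areas, around the 30th percentile used as a filter.

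Differences between areas were the rule for all genes, so a call says little of these genes in particular. As deposited, 8 members passed for CRTX minus BLA (79.3% of all probe sets passed), 9 for CA1 minus BLA (76.7%), 11 for CA3 minus BLA (87.4%), 9 for CA1 minus CRTX (88.6%), 11 for CA3 minus CRTX (95.1%) and 10 for CA3 minus CA1 (79.8%). After quantile normalization the counts were 6 (73.9%), 6 (69.6%), 8 (71.5%), 9 (64.5%), 8 (71.2%) and 3 (57.8%) in the same order. The median difference of all probe sets as deposited ran from -0.18 for CRTX minus BLA to 0.50 for CA3 minus CRTX, a shift that quantile normalization takes out. For the pairs with CA1 or CA3, area and scan day cannot be told apart. Where CA1 or CA3 is set against BLA or motor cortex, area cannot be told apart from the day of RNA preparation either.

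Stress in CA1 gave the only within-area differences of these genes that passed the threshold. In the vinclozolin lineage Mt2A fell in stressed rats on both probe sets, and so did Hsd11b1, while Fkbp5 had a difference of the same size that missed. Mt2A and Hsd11b1 are both known from astrocytes, and Hsd11b1 from neurons as well. The 3 called probe sets of 11 stand against 138 of 27342 called in all (0.505%).

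The second Mt2A probe set read 9.34, 9.67 and 9.83 in NSt-Con, 9.74, 9.78 and 9.85 in NSt-Vin, 9.27 and 9.24 in St-Con, and 9.06, 9.01 and 9.15 in St-Vin. All stressed arrays lay below all non-stressed ones, and St-Vin lay below St-Con. The difference in the vinclozolin lineage was -0.72 ± 0.104 (0.609 times the non-stressed level, adjusted p = 0.0447). In the control lineage, where 0% of all probe sets passed, it was -0.36 ± 0.116 (adjusted p = 0.996). Without the choroid-rich NSt-Con arrays 2 and 3 the control lineage gave -0.09 ± 0.086, with the lone NSt-Con array assumed to vary like the other groups.

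The first Mt2A probe set read 10.52, 10.81 and 10.85 in NSt-Con, 10.71, 10.92 and 10.99 in NSt-Vin, 10.43 and 10.41 in St-Con, and 10.24, 10.23 and 10.38 in St-Vin. Its order of groups was that of the second probe set, again with no overlap between stressed and non-stressed arrays. It fell by 0.59 ± 0.097 in the vinclozolin lineage (0.664 times, adjusted p = 0.045), and its difference in the control lineage was -0.31 ± 0.109 (adjusted p = 0.996), or -0.10 ± 0.119 without the choroid-rich arrays. The 2 probe sets had r = 0.905 over the 46 arrays after centring on each area, and near-identical metallothionein genes may share their signal.

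Since Mt2A had the widest difference among the called probe sets, the 250 bases before its start in RefSeq (GRCr8, chr19:10838709-10838958, minus strand) are shown, with metal response elements, to which the zinc-sensing factor of metallothionein genes binds, in capitals.

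Mt2A: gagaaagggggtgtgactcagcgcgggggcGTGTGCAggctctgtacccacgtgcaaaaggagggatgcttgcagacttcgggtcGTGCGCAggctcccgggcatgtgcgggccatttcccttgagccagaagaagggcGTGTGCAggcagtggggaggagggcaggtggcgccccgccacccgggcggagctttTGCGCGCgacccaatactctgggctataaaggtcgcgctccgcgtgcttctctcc

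The letters searched on both strands were TGCACNC and TGCGCNC for this element. Each matched at 2 places, starting 220 and 111 bases and 165 and 55 bases before the start site, and a TATAAA match starts at 31 bases. As many as 4 such matches occur in 89 of 33469 RefSeq windows of the same length (0.266%). The shorter core TGTTCT of the glucocorticoid response element was searched in the windows of all members with an entry, 13 windows of 8 genes, and matched in none, while 17.5% of all windows hold it. A match here is a description of letters, and no match says only that these letters are not in this window.

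Hsd11b1 read 9.25, 9.26 and 9.22 in NSt-Con, 9.25, 9.48 and 9.50 in NSt-Vin, 9.13 and 8.98 in St-Con, and 8.79, 8.73 and 8.97 in St-Vin. The stressed arrays again lay below every non-stressed one. It fell by 0.58 ± 0.084 in the vinclozolin lineage (0.669 times, adjusted p = 0.0447), and the control lineage gave -0.19 ± 0.093 (adjusted p = 0.996). The lineage by stress interaction was -0.39 ± 0.125 (adjusted p = 0.965), and for the second Mt2A probe set -0.36 ± 0.155 (adjusted p = 0.965), so the 2 lineages were not shown to differ. The latter ran from -0.63 without the choroid-rich arrays to -0.22 without NSt-Con array 1, short of the threshold in each alternative.

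Fkbp5 read 8.44, 8.52 and 8.79 in NSt-Con, 8.61, 8.86 and 8.87 in NSt-Vin, 8.39 and 8.18 in St-Con, and 7.96, 7.84 and 8.41 in St-Vin. Both stressed groups lay below their non-stressed counterparts without overlap. The difference in the vinclozolin lineage was -0.71 ± 0.147 (adjusted p = 0.0641), and without the third St-Vin array it was -0.88 (adjusted p = 0.0246), past the threshold. In the control lineage it was -0.30 ± 0.164.

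**Figure D2:**
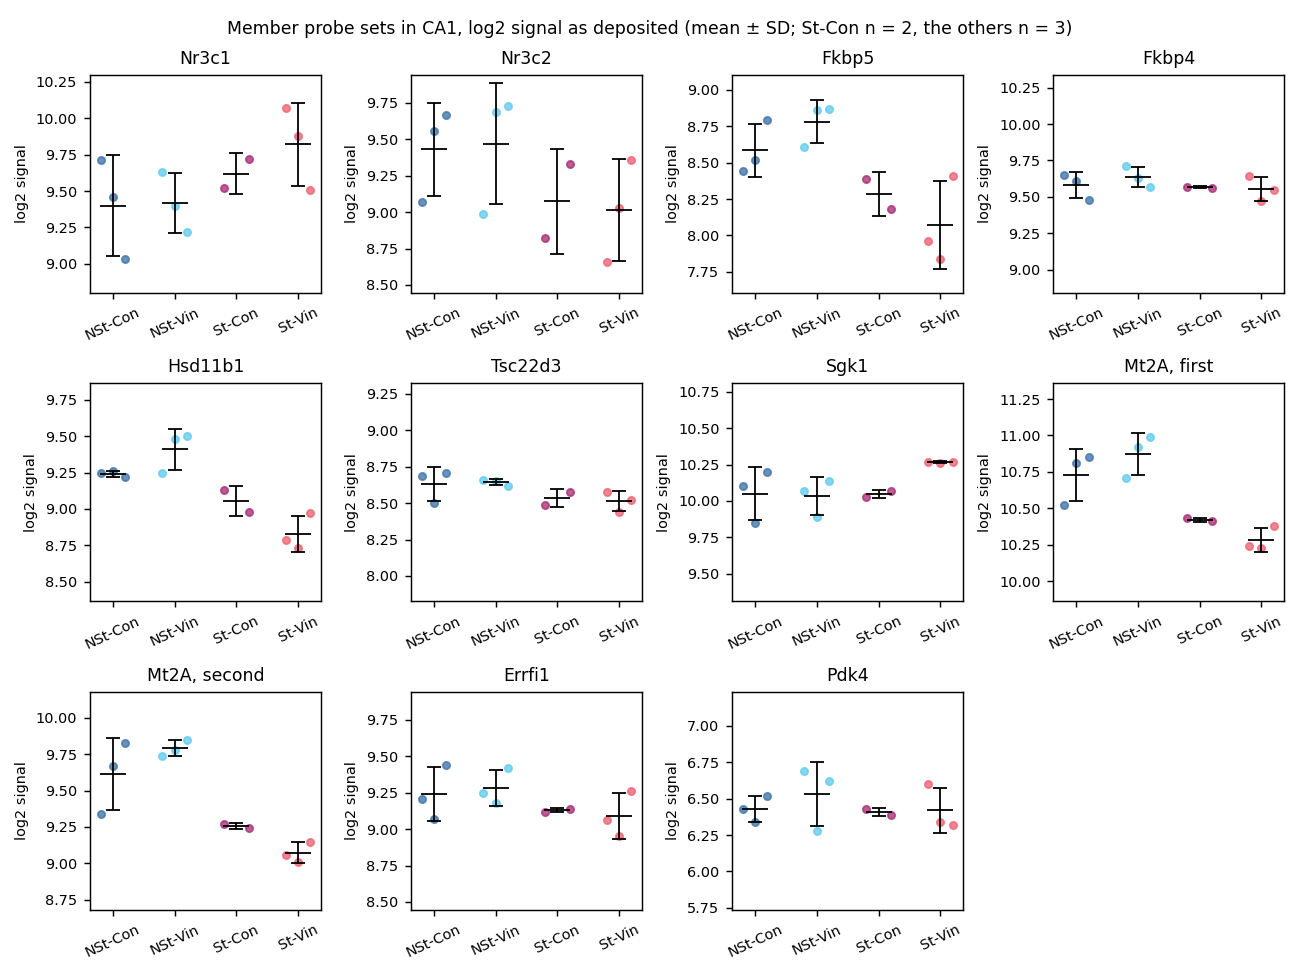
Log2 signal as deposited (vertical axis, 1.5 units per panel) of the 11 member probe sets in CA1 for the 4 groups of lineage and stress (horizontal axis). Points are arrays, each a pool of 4 animals, and bars the mean ± SD with n = 3, or 2 for St-Con; Mt2A and Hsd11b1 lie lowest in St-Vin, where the second Mt2A probe set reads 9.01 to 9.15.

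The receptors went opposite ways in CA1 without passing the threshold. Nr3c1 read 9.71, 9.46 and 9.03 in NSt-Con, 9.63, 9.40 and 9.22 in NSt-Vin, 9.52 and 9.72 in St-Con, and 10.07, 9.88 and 9.51 in St-Vin, with wide overlap. Averaged over lineage, stressed minus non-stressed was 0.31 ± 0.137 (adjusted p = 0.284). Nr3c2 read 9.07, 9.56 and 9.67, then 8.99, 9.69 and 9.73, then 8.82 and 9.33, then 8.66, 9.03 and 9.36 in the same order of groups, and the averaged difference was -0.41 ± 0.184 (adjusted p = 0.295). Over the 11 CA1 arrays Nr3c1 had r = -0.96 with the CA3 and CA2 pyramidal list and 0.96 with the cortical list. For Nr3c2 these were 0.88 and -0.81, and for both receptors they were the strongest of the cell type lists. High correlations over these arrays were not particular to the receptors. Hsd11b1 had r = 0.91 with the astrocyte list and -0.86 with the oligodendrocyte list. The first and second Mt2A probe sets had 0.89 and 0.85 with the astrocyte list. With the CA3 and CA2 pyramidal list these had 0.90 and 0.87, and Fkbp5 had 0.92. The part of such markers in the differences of these genes and the receptors was not tested. Sgk1 read 10.27, 10.26 and 10.27 in St-Vin, above all NSt-Vin arrays at 9.89 to 10.14, with a difference of 0.23 ± 0.090 (adjusted p = 0.204).

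Averaged over lineage, none of the 11 probe sets passed for stress in CA1 (0% of all probe sets did, although 4624 had an unadjusted p under 0.05 with limma). The averaged differences were -0.54 ± 0.078 and -0.45 ± 0.073 for Mt2A and -0.38 ± 0.063 for Hsd11b1 (adjusted p = 0.0911 each) and -0.50 ± 0.110 for Fkbp5 (adjusted p = 0.108). In 1 fit of all areas these 4 passed, and without NSt-Con array 1 the second Mt2A probe set alone did. These 4 also passed with all 48 arrays, where the array put back holds its group's mean and adds no measurement. Of the 11 probe sets 2 were higher with stress, with a median of -0.15 against -0.01 for all probe sets.

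The CA1 calls in the vinclozolin lineage were tied to few arrays and to 1 scan day. Of the CA1 arrays used, all those of St-Vin and no others were scanned on day 4 (as was the St-Con array left out), so that stress in this lineage cannot be told apart from the scan day. The control lineage values above come from day 3 alone. Leaving out any of the 3 NSt-Vin arrays, or St-Vin array 1 or 2, left 0 members called, and without St-Vin array 3 there were 4. Quantile normalization within CA1 also left 0, at adjusted p-values of 0.0513 to 0.0539. Over these fits the second Mt2A probe set ranged from -0.755 to -0.685, the first from -0.67 to -0.53 and Hsd11b1 from -0.66 to -0.53.

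Cell type markers moved with these groups in CA1. Of 13 astrocyte probe sets, 13 were lower in St-Vin than in NSt-Vin (median -0.17, 1 called), and the list averaged 10.57 to 10.61 in NSt-Con, 10.61 to 10.76 in NSt-Vin, 10.49 to 10.53 in St-Con and 10.43 to 10.53 in St-Vin. Oligodendrocyte probe sets were higher in 18 of 18 (median 0.46), the list averaging 9.40 to 9.80 in NSt-Vin and 9.67 to 10.14 in St-Vin. Lower values were seen for 10 of 12 CA3 and CA2 pyramidal probe sets (median -0.23) and 6 of 6 dentate granule ones (median -0.76), while cortical layer genes were higher in 6 of 7 (median 0.53). The dentate list ran from 6.99 to 7.91 in St-Vin and the cortical list from 8.02 to 8.40, against 7.56 to 8.08 in NSt-Vin. Ependyma probe sets were lower in 6 of 6 (median -0.18), the list averaging 6.22 to 6.37 in NSt-Vin and 5.91 to 6.02 in St-Vin. In the control lineage 11 of 13 astrocyte probe sets (median -0.06) and 16 of 16 choroid plexus ones (median -1.03) were lower with stress. There the CA3 and CA2 list averaged 8.71 in NSt-Con and 8.45 in St-Con, and the dentate list 7.76 and 7.53. The cortical list averaged 7.83 and 8.03, and ependyma 6.30 and 6.13. The CA1 pyramidal list averaged 8.11 in NSt-Vin and 8.51 in St-Vin, and 8.05 and 8.21 in the control lineage, with overlap in each lineage. The part of these shifts in the member differences was not tested. Without the choroid-rich arrays of CA1, both NSt-Con, the 3 called probe sets had adjusted p-values of 0.0173 to 0.0392, and the averaged stress differences were -0.40 and -0.34 for Mt2A, -0.39 for Hsd11b1, 0.16 for Nr3c1 and -0.22 for Nr3c2.

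**Figure D3:**
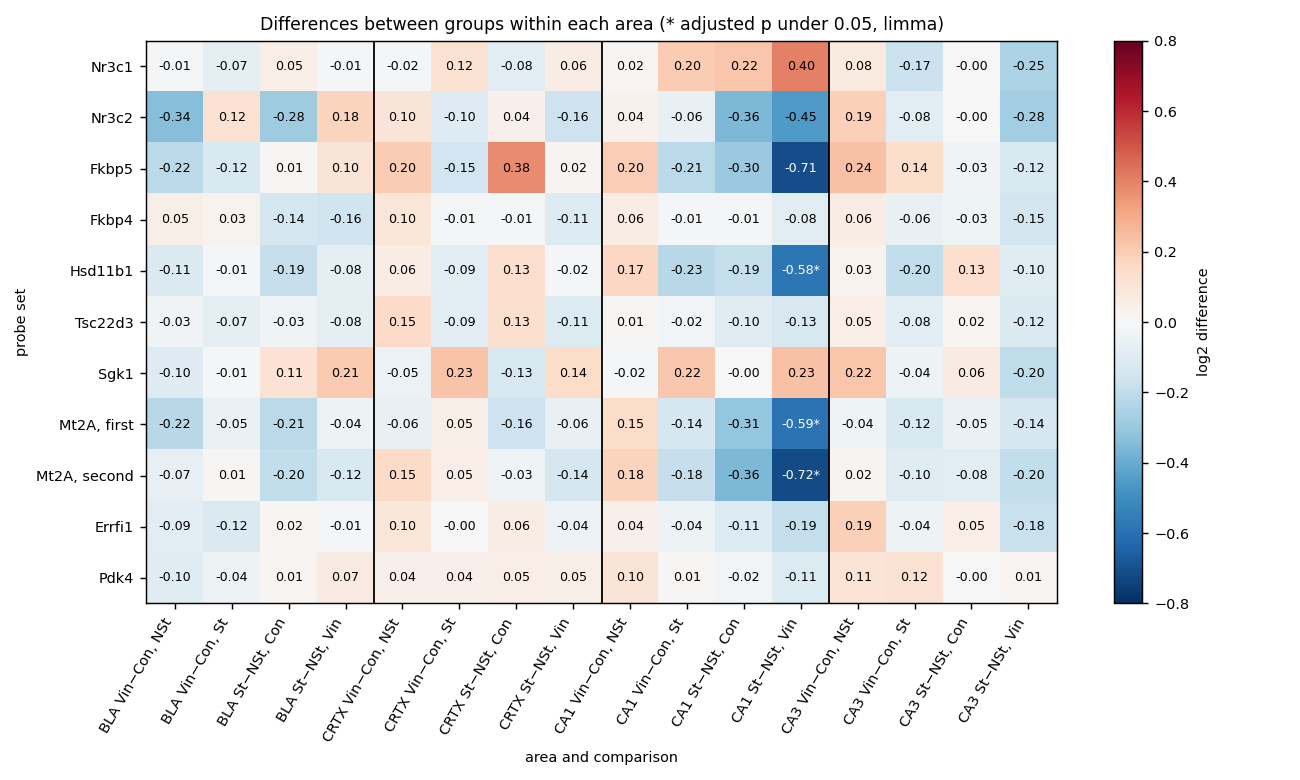
Log2 differences (colour and printed value) of the 11 member probe sets (rows) for the lineage difference without and with stress and the stress difference in each lineage, in each area (columns). Stars mark an adjusted p under 0.05 with limma; they stand only at stress in the vinclozolin lineage of CA1, at -0.58 for Hsd11b1 and -0.59 and -0.72 for Mt2A.

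In motor cortex Fkbp5 was higher with stress in the control lineage, short of the threshold. In the vinclozolin lineage it averaged 7.82 in NSt-Vin and 7.84 in St-Vin. It read 7.69, 7.48 and 7.69 in NSt-Con, 7.86 and 7.78 in NSt-Vin, 8.19, 7.86 and 7.94 in St-Con, and 7.85, 7.95 and 7.73 in St-Vin. St-Con lay above NSt-Con without overlap, by 0.38 ± 0.091 (adjusted p = 0.0717), where 174 of 27342 probe sets passed (0.636%) and none of the members did. With all 48 arrays this difference passed (adjusted p = 0.0378), but the NSt-Vin array put back holds its group's mean. It narrows the estimated spread and adds no measurement. With scan day as a block the difference was 0.46 ± 0.190 (adjusted p = 0.663), where the day term rests on 2 NSt-Vin arrays, 1 from each day. All NSt-Con arrays of this area were scanned on day 1 and all St-Con arrays on day 2. Stress in the control lineage of motor cortex therefore cannot be told apart from the scan day. Choroid plexus markers were lower in St-Con in 16 of 16 probe sets (median -0.92), and without the choroid-rich array the Fkbp5 difference was 0.41 ± 0.103.

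Tsc22d3 in motor cortex kept within a narrow range. It read 8.21, 8.31 and 8.24 in NSt-Con, 8.39 and 8.42 in NSt-Vin, 8.36, 8.37 and 8.42 in St-Con, and 8.31, 8.27 and 8.31 in St-Vin. NSt-Con lay below NSt-Vin and St-Con, and St-Vin below both of these, without overlap. The differences were 0.15 ± 0.055 for lineage without stress (adjusted p = 0.812), 0.13 ± 0.049 for stress in the control lineage (adjusted p = 0.189) and -0.24 ± 0.074 for the interaction (adjusted p = 0.841). Fkbp5 had an interaction of -0.35 ± 0.137 and Nr3c2 of -0.21 ± 0.093, also short of the threshold.

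Among the other members in motor cortex, Nr3c2 was lower in St-Vin, at 7.10, 7.22 and 7.06, than in NSt-Vin, at 7.28 and 7.30 (difference -0.16 ± 0.070, adjusted p = 0.998, with 0% of all probe sets called). Sgk1 read 9.54, 9.38 and 9.19 in St-Vin and 9.22, 9.20 and 9.01 in St-Con (0.23 ± 0.099, adjusted p = 0.826), with overlap. Mt2A and Hsd11b1, which fell in CA1, had stress differences between -0.16 and 0.13 here. Called probe sets numbered 2 for the averaged stress difference in motor cortex (0.00731%), none of them a member, with 3865 at an unadjusted p under 0.05, and Fkbp5 had 0.20 ± 0.069 (adjusted p = 0.225).

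In CA3 both receptors had negative stress differences in the vinclozolin lineage, short of the threshold, and no member passed for stress in any CA3 comparison (0% of all probe sets in each). Nr3c1 read 9.98, 9.77 and 10.00 in NSt-Con, 9.98, 9.92 and 10.08 in NSt-Vin, 9.91, 9.80 and 10.03 in St-Con, and 9.84, 9.70 and 9.68 in St-Vin. The St-Vin arrays lay below all NSt-Vin arrays, by -0.25 ± 0.079 (adjusted p = 0.25). Nr3c2 read 10.23, 9.97 and 9.84 in NSt-Vin and 9.86, 9.85 and 9.49 in St-Vin, which overlap (-0.28 ± 0.121, adjusted p = 0.338). All CA3 arrays were scanned on 1 day.

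Errfi1 and Fkbp5 in CA3 were highest in NSt-Vin. Errfi1 read 9.43, 9.48 and 9.66 in NSt-Con, 9.79, 9.69 and 9.66 in NSt-Vin, 9.68, 9.51 and 9.54 in St-Con, and 9.57, 9.53 and 9.50 in St-Vin. Its lineage difference without stress was 0.19 ± 0.068 (adjusted p = 0.845) and its stress difference in the vinclozolin lineage -0.18 ± 0.068 (adjusted p = 0.296). Fkbp5 read 8.72, 8.79 and 8.67 in NSt-Con and 9.08, 9.01 and 8.80 in NSt-Vin, without overlap, a difference of 0.24 ± 0.102 (adjusted p = 0.845). The levels in St-Con, 8.91, 8.62 and 8.57, and in St-Vin, at 8.70 to 9.0, overlapped.

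**Figure D4:**
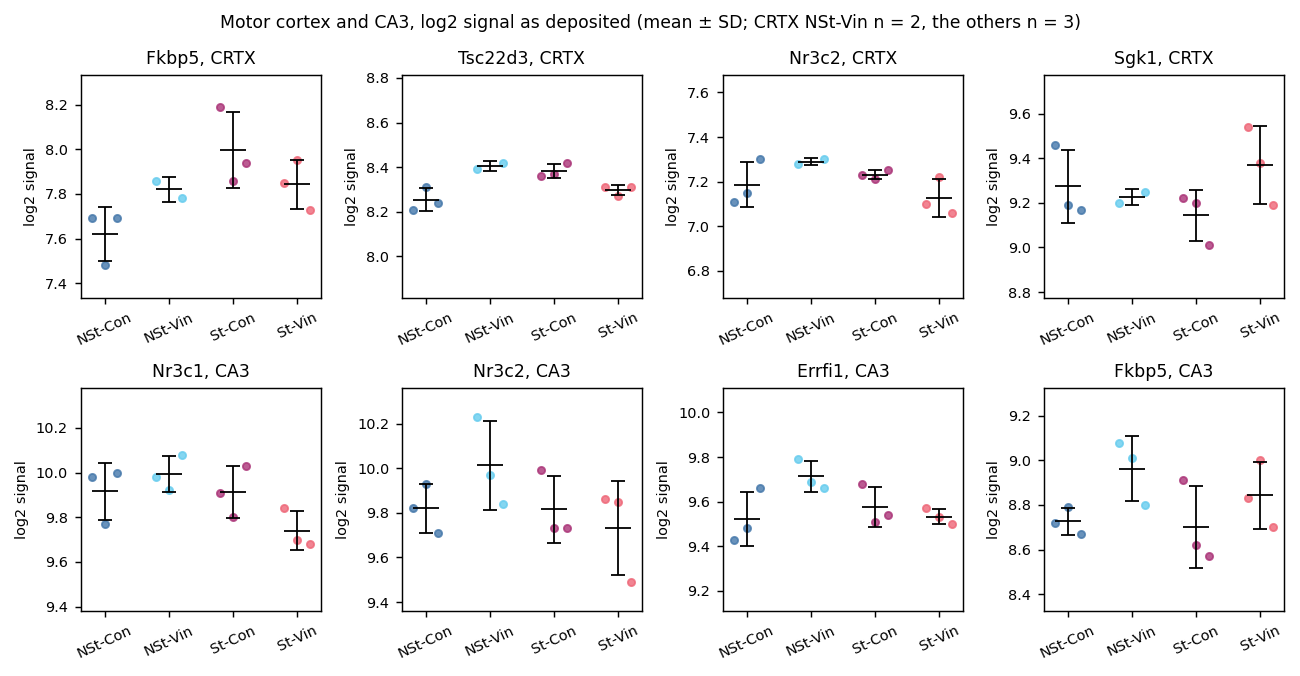
Log2 signal as deposited (vertical axis, 1 unit per panel) for the 4 groups of lineage and stress (horizontal axis): Fkbp5, Tsc22d3, Nr3c2 and Sgk1 in motor cortex (upper row), and Nr3c1, Nr3c2, Errfi1 and Fkbp5 in CA3 (lower row). Points are arrays and bars the mean ± SD with n = 3, or 2 for NSt-Vin of motor cortex; Fkbp5 in motor cortex reads 7.48 to 7.69 in NSt-Con and 7.86 to 8.19 in St-Con.

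In BLA, Fkbp4 read 9.28, 9.24 and 9.22 in NSt-Con, 9.35, 9.31 and 9.22 in NSt-Vin, 9.07, 9.22 and 9.03 in St-Con, and 9.08, 9.13 and 9.19 in St-Vin, so that no stressed array exceeded a non-stressed one. Averaged over lineage, stressed minus non-stressed was -0.15 ± 0.046 (adjusted p = 0.996). Sgk1 and Fkbp5 varied widely between arrays of 1 group, St-Con reading 9.63, 9.74 and 8.80 for Sgk1 and 8.62, 8.76 and 7.68 for Fkbp5. The list of striatal medium spiny neuron genes averaged 9.08, 9.07 and 7.30 on the same arrays, and its part in these values was not tested. In BLA none of the members passed in any of the 7 comparisons, and 0% of all probe sets passed, with 331 to 1130 at an unadjusted p under 0.05.

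Groups that did not overlap were counted for each probe set, without a test. For stress in the vinclozolin lineage this held for 6 member probe sets in CA1 (25.2% of all probe sets), namely Sgk1, which was higher, and Fkbp5, Hsd11b1, Tsc22d3 and both of Mt2A, which were lower. It held for 5 in CA3 (18% of all probe sets), 4 in motor cortex (13.2%) and 1 in BLA (6.18%), all lower in stressed rats: Nr3c1, Fkbp4, Sgk1, Errfi1 and the first Mt2A probe set in CA3, Nr3c2, Fkbp4, Tsc22d3 and the second Mt2A probe set in motor cortex, and Fkbp4 in BLA. For stress in the control lineage it held for 4 in CA1 (14.7%), 2 in motor cortex (24.3%), 0 in BLA (5.8%) and 0 in CA3 (6.89%). In motor cortex the share of the members was below that of all probe sets for stress in the control lineage and above it for stress in the vinclozolin lineage.

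No member passed for lineage without stress, lineage with stress, the averaged lineage difference or the interaction in any area (0% of all probe sets in each). Groups that did not overlap by lineage without stress were 2 in motor cortex (20.3%), 1 in CA3 (8.47%), 0 in BLA (5.35%) and 0 in CA1 (6.11%), and with stress 4 in CA1 (22.9%), 1 in motor cortex (9.16%), 0 in BLA (6.4%) and 0 in CA3 (9.31%). The 4 in CA1 were Sgk1, higher in St-Vin, and Hsd11b1 and both Mt2A probe sets, lower, where lineage is confounded with the scan day. With the dyad group as a block in CA1, 347 probe sets passed for lineage with stress (1.27%), 135 for the interaction (0.494%) and 112 for the averaged lineage difference (0.41%), and again no member. Fkbp5 came nearest, with -0.39 ± 0.080 for lineage with stress (adjusted p = 0.0658) and -0.58 ± 0.104 for the interaction (adjusted p = 0.0623). The stressed side of this fit rests on dyad groups 4 and 5 alone (-0.43 and -0.34 for Fkbp5), since group 6 lacks its St-Con array.

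Within dyad groups the vinclozolin pool was set against its cage mates' pool in the same area, which gave 11 pairs without stress and 11 with stress over the 4 areas. Tsc22d3 was lower in the vinclozolin pool in 10 of 11 stressed pairs and in 4 of 11 non-stressed pairs, with mean differences of -0.07 and 0.04. Fkbp4 was higher in 8 of 11 non-stressed pairs and in 5 of 11 stressed ones. Fkbp5 was higher in 8 of 11 non-stressed pairs and lower in 7 of 11 stressed ones, with means of 0.08 and -0.11. Pairs of 1 dyad group in several areas share their animals, so these counts are descriptions. The stressed Tsc22d3 count was the most one-sided among the members, and the share of all probe sets that reach it was not computed.

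**Figure D5:**
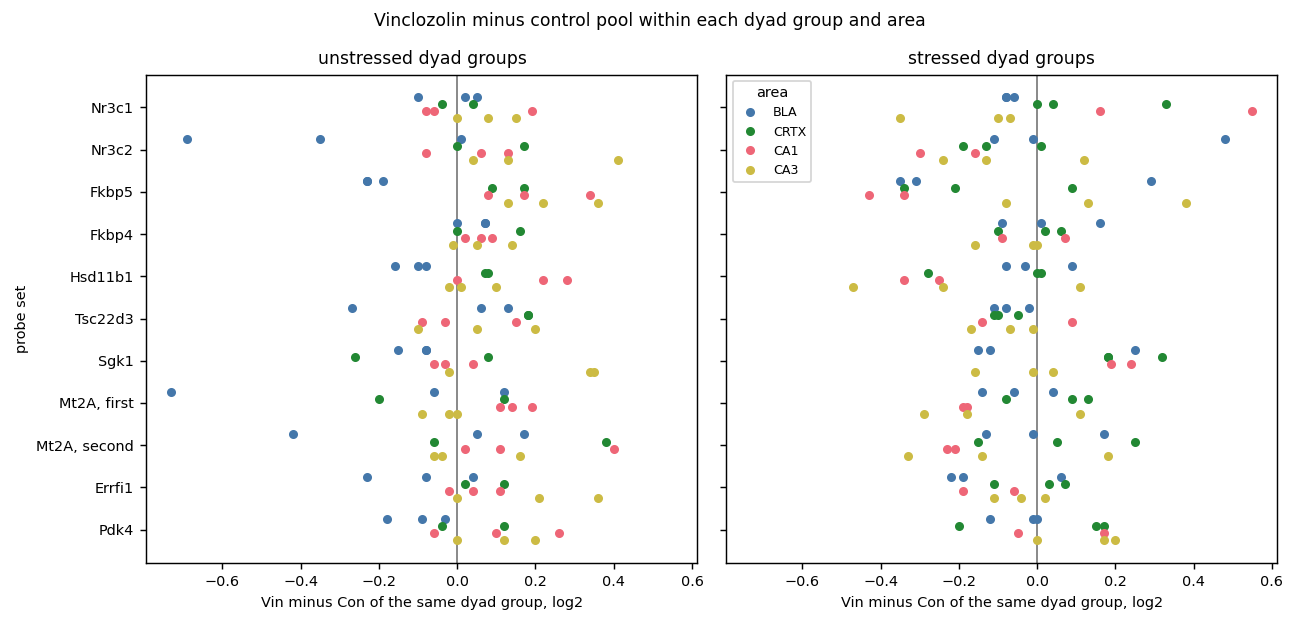
Vinclozolin minus control pool of the same dyad group (horizontal axis, log2) for the 11 member probe sets (vertical axis), without stress at left and with stress at right, coloured by area. Each point is 1 pair of pools in 1 area; Tsc22d3 lies below 0 in 10 of 11 stressed pairs, and most other rows spread to both sides of 0.

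When each pool's 4 areas were averaged (10 pools), no member passed in any of the 7 comparisons, and 0% of all probe sets did, with 811 to 2260 at an unadjusted p under 0.05. The lowest p-values of members were those of Mt2A for the averaged stress difference, at -0.25 ± 0.045 for the second probe set and -0.20 ± 0.046 for the first (adjusted p = 0.456 each). Stress in the vinclozolin lineage gave 2 of 11 probe sets higher and a median of -0.14, against -0.01 for all probe sets. For Mt2A these means hold the CA1 differences given above.

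Whether an effect differed between areas was tested directly with limma's F test. No member passed for any of the 7 comparisons. All probe sets passed at 0.907% for the averaged stress difference, at 0.263% for stress in the vinclozolin lineage, at 0.0951% for stress in the control lineage and at 0% for the other 4. Fkbp5 came nearest for the averaged stress difference (adjusted p = 0.118), its values being -0.50 in CA1 and 0.20 in motor cortex, followed by the second Mt2A probe set (adjusted p = 0.123). Without the third St-Con pool, 1 member passed for the averaged stress difference. With all 48 arrays 1 member passed as well, but the 2 arrays put back hold group means and add no measurement.

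Other genes of the pathway were taken from 4 lists. Of the chaperone and co-chaperone list, 15 of 16 genes were measured (23 probe sets). In CA1, stress in the vinclozolin lineage gave 3 probe sets higher and 20 lower (median -0.06, against -0.02 for all probe sets), and 1 passed, Ppid, the cyclophilin of the receptor complex, at -0.41 ± 0.064 (adjusted p = 0.045). Such a lean was not particular to this comparison. Stress in the control lineage gave 4 higher and 19 lower in CA1, 1 and 22 in BLA, and 14 and 9 in motor cortex. The vinclozolin lineage had 6 higher and 17 lower in BLA and 8 and 15 in motor cortex. For stress in the vinclozolin lineage, the steroid receptor coregulators (10 of 12 measured) had 5 of 10 higher in CA1 and none called. In CA3 0 of 10 were higher (median -0.16) with none called. The genes of glucocorticoid metabolism and transport (11 of 12 measured) had 7 of 11 higher in CA1, and Hsd11b1 alone was called, lower.

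Of the glucocorticoid-induced list, 34 of 41 genes were measured (35 probe sets), 6 of them members. Stress in the vinclozolin lineage of CA1 gave 14 probe sets higher and 21 lower (median -0.07) and 3 called lower, both of Mt2A and Dusp4, a phosphatase that dampens MAP kinase signalling, at -0.41 ± 0.075 (adjusted p = 0.0495). Stress in the control lineage of motor cortex gave 18 higher and 16 lower (median 0.00) and 1 called, Agt, the precursor of angiotensin, which is made by astrocytes, at 0.42 ± 0.072 (adjusted p = 0.0404). Astrocyte markers were higher there in 11 of 13 probe sets (median 0.12), and their part in this was not tested. Stress and scan day cannot be told apart in that comparison. In BLA, CA3 and the mean of areas no gene of the 4 lists passed.

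The genes whose pattern was most like a member's were found over the 46 arrays after centring on each area, as a description of arrays that share pools. Hsd11b1 had Cth (r = 0.882), an enzyme of cysteine synthesis, Acsbg1 (0.798), which is on the astrocyte list, and Slc25a18 (0.797). Both Mt2A probe sets had Cdo1, a cysteine-degrading enzyme, and Aox1 among their nearest 3 (0.84 and 0.71 for the first, 0.739 and 0.744 for the second). Nr3c1 had Pik3r1 (0.90), Fchsd2 (0.897) and Ptk2 (0.885), and Nr3c2 had Zfp189 (0.906), Ncdn (0.899) and Necab2 (0.873). Over the deposited values, where the areas drive the order, Nr3c2 was most like Kit (0.989), Wipf3 (0.985) and Lmo1 (0.985), and Nr3c1 like Ptprj (0.894), Usp7 (0.892) and Rapgef2 (0.891). Fkbp5 had Coro7 (0.88), Mpp3 (0.872) and Kcnip2 (0.862). Errfi1 had Scamp1 (0.837), Itpa (0.825) and Ppp1cc (0.815), and Sgk1 had Cbr1 (0.796), Pcsk2 and Cdk17 (0.77 each). The nearest of Fkbp4 were Tfpt (0.756), Plbd2 (0.739) and Habp4 (0.738), of Tsc22d3 Smim7 (0.68), Dennd10 (0.677) and Tnpo3 (0.658), and of Pdk4 Enpp1 (0.607), Cyp2u1 (0.60) and Arhgap9 (0.579).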

How the data were processed

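The authors deposited log2 signals from 1-colour Affymetrix whole-transcript arrays; Partek and RMA are the tools listed in the submitters' processing notes. Their versions and the build are not given in the sources used here. Distributions of arrays are alike within an area and differ between areas. The number of arrays limits the precision. Group means were fitted per area on the deposited log2 values in R 4.3.3 by lmFit and eBayes of limma 3.58.1, with statmod 1.5.0 for blocks, two-sided, with Benjamini-Hochberg adjustment over all 27342 probe sets and a threshold of 0.05. Areas were compared with the animal pool as a random block (duplicateCorrelation), as deposited and after quantile normalization over all arrays. SE comes from the fits and SD is the spread between arrays. The scripts were tested on simulated data.

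An array equal to the mean of its group's other arrays within 0.0051 was left out (2 of 48). Vinclozolin and control pools of a dyad group are cage mates per the labels, and 19 of 22 such pairs of arrays correlated above 0.1 (median 0.305), so a dyad block is given where it changes a count. The platform annotation gives 15097 probe sets 1 symbol, 323 several and 11922 none; all 11 member probe sets matched RefSeq (GRCr8) by gene number with no symbol changed. Promoter letters come from RefSeq.

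The members, the lists and the tests were chosen with earlier results of these data known. Named are all 10 members, other list genes past the threshold (at most 6 per list and comparison) and the 3 nearest genes by Pearson's r. Alternatives were all 48 arrays, the dyad block, a filter below the 30th percentile, trend and robust eBayes, quantile or median scaling, scan day as a block, 1 fit of all areas, and leaving out choroid-rich arrays or each array or pool.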

Additional observations from a re-analysis of the deposited data

How the results depend on the processing

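Of the member counts under alternatives other than leaving out single arrays, 274 stayed within 1.5 times of the value given and 7 did not. Counts of 0 that stayed 0 are among the 274, mostly where few or no probe sets passed at all, so this tally says little. Stress in the vinclozolin lineage of CA1, the only within-area count above 0, fell to 0 in 6 of its 13 alternatives, single arrays included. With all 48 arrays, 1 member passed for stress in the control lineage of motor cortex (1027 probe sets in all), 4 for averaged stress in CA1 and 1 for the difference between areas in averaged stress. The 2 arrays put back there equal their group's mean, so they narrow the estimated spread and add no measurement. One fit of all areas gave 4 for averaged stress in CA1. Quantile normalization within CA1 left 0 for stress in the vinclozolin lineage, with adjusted p-values of 0.0513 to 0.0539. For CA3 minus CA1, 3 passed after quantile normalization and 4 after centring each array on its median. Leaving out single arrays gave 0 to 4 for stress in the vinclozolin lineage of CA1 and 0 to 1 for averaged stress there, and leaving out single pools 0 to 1 for the difference between areas in averaged stress. The dyad replicate block changed no member's call: with it, the stress differences in the vinclozolin lineage of CA1 had adjusted p-values of 0.0449 for Hsd11b1 and 0.0451 for the first Mt2A probe set. The filter below the 30th percentile put the first Mt2A probe set at 0.0503.

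All 17 reversals were differences between areas. Quantile normalization over all arrays turned Tsc22d3 (CRTX minus BLA 0.0361, CA1 minus BLA -0.00797, CA1 minus CRTX -0.0441, CA3 minus CRTX -0.0175), Pdk4 (CRTX minus BLA 0.0785, CA3 minus CA1 -0.0583), Nr3c1 (CA3 minus BLA -0.0109, CA3 minus CRTX -0.12) and Fkbp4 (CA3 minus CRTX -0.18). Median centring turned Tsc22d3 (CRTX minus BLA 0.22, CA1 minus CRTX -0.10, CA3 minus CRTX -0.0358), Errfi1 and Pdk4 (CRTX minus BLA 0.0858 and 0.10), Pdk4 (CA3 minus CA1 -0.12), Nr3c1 (CA3 minus CRTX -0.20) and Fkbp4 (CA3 minus CRTX -0.26). These scalings remove a shift common to all probe sets. The alternatives to the test between areas of stress and lineage effects were chosen after seeing the data. Groups of 2 or 3 arrays limit what could pass, and the causes of the other changes were not tested.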
